A study of Drosophila melanogaster with 6 samples.

Results

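Respiratory complex I is built from subunits encoded in the nucleus and in the mitochondrial genome, and the nuclear genes carry symbols that start with ND- in Drosophila. These genes were taken by that symbol from a table of RNA-seq counts per gene, which gave 40 of 17494 genes. Of the 40, 34 encode subunits of the complex itself or a protein purified with it, and 6 are paralogs whose symbols end in L or in L and a digit. The 34 were divided by place in the complex into 7 core subunits, 8 accessory subunits of the matrix arm, 18 accessory subunits of the membrane arm and ND-MLRQ. ND-ACP was counted with the membrane arm alone, although ND-B14, placed in the matrix arm, binds it. The fly ESSS subunit is listed under its older symbol, NP15.6, and is therefore not among the 40.

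The libraries came from ventral nerve cords (VNCs) of adult flies, labelled as 6 days old although the study's methods give another age, and the study asked how the RNA-binding protein Syncrip (Syp) shapes neuroblast (NB) tumors. There were 3 conditions with 2 libraries each. In poxn > prosRNAi, SypRNAi tumors, prospero (pros) and Syp were both knocked down by UAS-RNAi in the NBs where the poxn-GAL4 driver is active. In poxn > prosRNAi tumors, pros alone was knocked down with the same driver. Knockdown of pros, a transcription factor that ends NB self-renewal, makes these NBs amplify, and the tumor flies also carried UAS-dicer2 and a fluorescent reporter. Wild-type VNCs had no tumor, and no NB remains in them at this age. Their genotype is given no further, so that driver and dicer2 cannot be told apart from the tumor in the comparisons with wild type. The tumor libraries were made from whole VNCs, tumor and surrounding tissue together, pooled from females and males. Both samples of a condition were handled side by side as technical replicates, per the study's methods, so that p-values measure the spread between such samples and not between flies.

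Complex I takes electrons from NADH, hands them to ubiquinone and pumps protons across the inner mitochondrial membrane. It has the shape of an L. The arm in the matrix holds the flavin and the iron-sulfur clusters, and the arm in the membrane holds the proton channels, whose core subunits are encoded by the mitochondrial genome. Accessory subunits surround this core and are needed for assembly or stability. Nerve and muscle are known for a high demand on the complex. Several nuclear genes for mitochondrial proteins have duplicates in the fly, many of which are known for expression in the testis.

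Each library held 86098417 to 128107088 counts. The ND- genes took 0.166% and 0.170% of the counts in poxn > prosRNAi, SypRNAi tumors, 0.135% and 0.128% in poxn > prosRNAi tumors, and 0.255% and 0.287% in wild type. Levels are given below as CPM, the count of a gene scaled to library size with TMM factors over the 6 libraries, and as CPM per kb of exon where genes are compared with each other. The knocked-down genes were read in whole VNCs, so that their levels include the tissue around the tumor. Syp was at 422 and 459 CPM in poxn > prosRNAi, SypRNAi tumors, against 2066 and 1762 CPM in poxn > prosRNAi tumors and 699 and 688 CPM in wild type. Its transcript was thus lower with SypRNAi (log2 fold change -2.12 ± 0.11, SE, adjusted p = 0.00349 in edgeR's quasi-likelihood test). pros itself was at 1045 and 1254 CPM in poxn > prosRNAi, SypRNAi tumors, 736 and 808 CPM in poxn > prosRNAi tumors, and 2504 and 2335 CPM in wild type. Both libraries of each tumor condition were below both of wild type. Between the tumors pros was higher with SypRNAi (log2 fold change 0.58 ± 0.11, SE, adjusted p = 0.0274 in edgeR's quasi-likelihood test). In whole VNCs the tumor conditions thus differed in pros transcript as well as in Syp. The neuron marker sum, given below, was also lower in both tumors than in wild type and higher with SypRNAi between the tumors. Its part in the level of pros was not tested. The 6 NB markers (dpn, mira, wor, ase, grh and insc) summed to 1919 and 1760 CPM in poxn > prosRNAi, SypRNAi tumors, 2423 and 2266 CPM in poxn > prosRNAi tumors, and 12.6 and 11.7 CPM in wild type. Between the tumors, at an adjusted p under 0.05, 1 of the 6 was higher with SypRNAi and 2 lower. With SypRNAi mira was at 488 and 485 CPM, against 988 and 934 CPM without it. The values of wor were 380 and 325 CPM, against 320 and 280 CPM.

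The tissue around the tumor differed between conditions as well. The 9 neuron markers summed to 1807 and 2456 CPM in poxn > prosRNAi, SypRNAi tumors, 1228 and 1437 CPM in poxn > prosRNAi tumors, and 7177 and 7087 CPM in wild type. The 15 muscle markers, which a VNC carries only as attached tissue, summed to 1130 and 1894 CPM, 227 and 225 CPM, and 886 and 1304 CPM in the same order of conditions. Muscle transcripts were thus at their lowest in poxn > prosRNAi tumors, and pros Syp knockdown replicate 2 held more of them than replicate 1. The 6 fat body markers summed to 332 and 242 CPM in poxn > prosRNAi, SypRNAi tumors, 1564 and 990 CPM in poxn > prosRNAi tumors, and 6605 and 5695 CPM in wild type. Between the tumors 5 of the 6 were lower with SypRNAi and 1 was higher, at a log2 fold change of 7.58. The part of these tissues in the levels of the ND- genes was not tested. In such bulk samples, fewer cells of a type and less RNA per cell cannot be told apart.

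The 34 subunit genes were expressed in every library, with 154 to 32202 counts each. Their levels spanned a narrow range for most members. The median was 46.8 CPM per kb in poxn > prosRNAi, SypRNAi tumors, 41.2 CPM per kb in poxn > prosRNAi tumors and 63.4 CPM per kb in wild type. ND-B8, an accessory subunit of the matrix arm, stood apart at the low end in each condition. It was at 5.04, 4.34 and 4.58 CPM per kb in the same order of conditions, 9.27, 9.51 and 13.8 times below the median. The next lowest in all 3 was ND-B18, a membrane-arm subunit, at 15.2, 11.1 and 13.8 CPM per kb. ND-MLRQ was the highest in all 3, at 126, 94.3 and 229 CPM per kb. Its mammalian counterpart is now counted among the subunits of complex IV. The order of the subunits by level was much alike between conditions. As a description over the 34 genes, which share libraries and exon lengths, Spearman's rho was 0.975 between the tumor conditions, 0.887 between poxn > prosRNAi tumors and wild type, and 0.883 between poxn > prosRNAi, SypRNAi tumors and wild type.

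**Figure D1:**
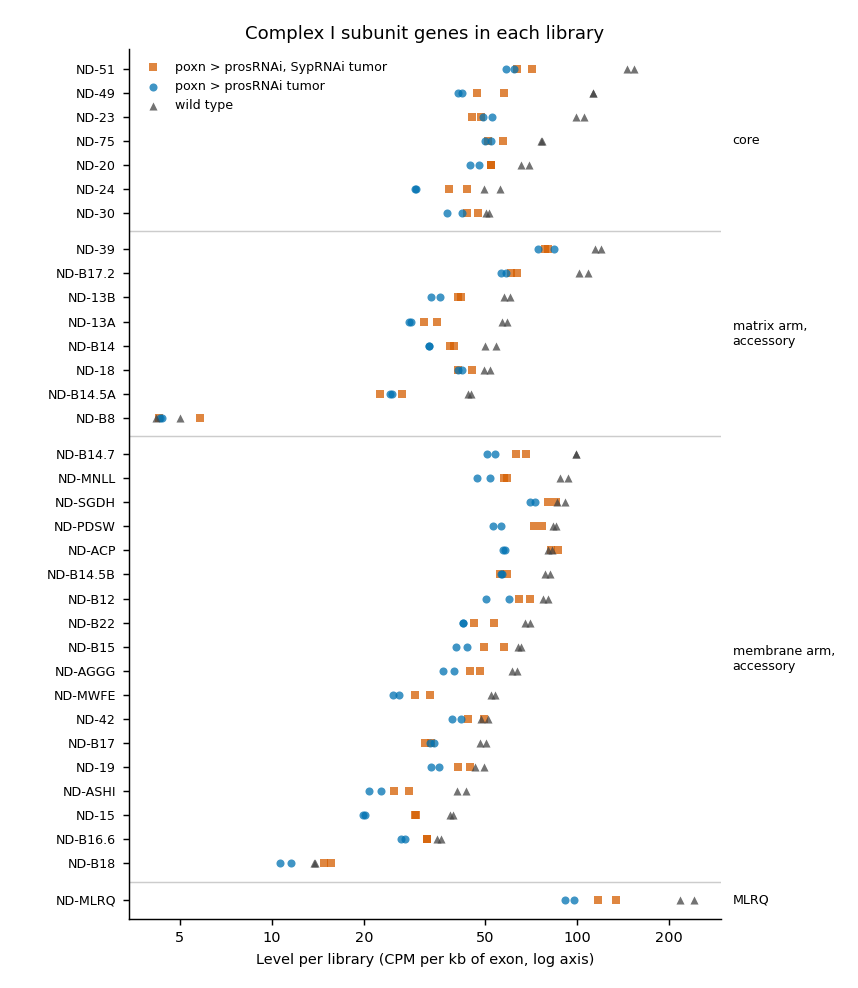
Level of each of the 34 subunit genes in each of the 6 libraries, in CPM per kb of exon on a log axis, with genes ordered within each class by their wild-type mean. Orange squares are poxn > prosRNAi, SypRNAi tumors, blue circles poxn > prosRNAi tumors and grey triangles wild type, with 1 symbol per library. Wild type lies to the right for most genes, and ND-B8 lies far to the left of the others in all conditions.

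Summed over the 34 subunits, the level was 1651 and 1763 CPM per kb in poxn > prosRNAi, SypRNAi tumors, 1473 and 1422 CPM per kb in poxn > prosRNAi tumors, and 2400 and 2513 CPM per kb in wild type. The libraries of the conditions did not overlap. Relative to the wild-type mean, poxn > prosRNAi, SypRNAi tumors were at 67.2% and 71.8% and poxn > prosRNAi tumors at 60.0% and 57.9%. The classes differed in how far they stood below wild type. The core subunits were at 55.7% and 61.8% of the wild-type mean in poxn > prosRNAi, SypRNAi tumors, against 52.4% and 51.9% in poxn > prosRNAi tumors. The accessory subunits of the matrix arm were at 65.2% and 68.3%, against 63.0% and 60.4%. The accessory subunits of the membrane arm were at 77.6% and 81.4%, against 66.2% and 63.7%. Of these 3 sums, that of the core was furthest below wild type in both tumors and that of the membrane arm closest to it. ND-MLRQ, a class of its own, was at 54.9% in poxn > prosRNAi, SypRNAi and 41.2% in poxn > prosRNAi tumors. By the median over genes, poxn > prosRNAi, SypRNAi tumors had the matrix-arm accessory subunits (log2 fold change -0.54) further below wild type than the core (-0.49). For 29 of the 34 genes the mean of poxn > prosRNAi, SypRNAi tumors lay between that of poxn > prosRNAi tumors below and that of wild type above, and for 23 of them no libraries overlapped between conditions. The exceptions to the order of the means were ND-B17, ND-23, ND-ACP, ND-B18 and ND-B8. The share of all genes with this order, with or without overlap, was not counted. Of all genes tested, 33.7% had both libraries higher with SypRNAi between the tumors. Both SypRNAi libraries lay below both of wild type in 44.1%.

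In poxn > prosRNAi tumors against wild type, nearly the whole set of subunits was lower. Of the 38 ND- genes with enough counts to be tested, 36 were lower at an adjusted p under 0.05 and 0 were higher, while 40.7% of all 14162 genes tested were lower in this comparison. At an unadjusted p under 0.05, 0 ND- genes were higher, and DESeq2's Wald test also gave 0. The median log2 fold change of the 34 subunits was -0.64, against 0.01 over all genes tested. All 7 core subunits, 7 of 8 accessory subunits of the matrix arm, 18 of 18 of the membrane arm and ND-MLRQ fell. In 33 of the 34 subunit genes both tumor libraries were below both wild-type libraries, an arrangement that 45.9% of all genes tested showed. The subunit genes stood at 36.7% to 94.7% of the wild-type mean, with a median of 63.8%.

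The core subunits of the matrix arm lie along the path of the electrons. ND-51 (FBgn0031771, Release 6 chromosome 2L, 6060842 to 6062757, 4 exons) binds NADH and the flavin, where electrons enter. It was at 93.0 and 98.6 CPM in poxn > prosRNAi tumors, against 231 and 244 CPM in wild type (log2 fold change -1.30 ± 0.07, SE, adjusted p = 2.06e-05 in edgeR's quasi-likelihood test). The tumor mean stood at 40.3% of the wild-type mean. Its partner at the entry, ND-24 (FBgn0030853, X, 17632089 to 17633509), carries an iron-sulfur cluster beside the flavin. ND-24 was at 31.3 and 31.6 CPM in poxn > prosRNAi tumors, against 52.7 and 59.4 CPM in wild type (log2 fold change -0.83 ± 0.08). ND-75 (FBgn0017566, X, 8248651 to 8251687), the largest subunit, carries several clusters of the chain. It was at 137 and 132 CPM in poxn > prosRNAi tumors, against 200 and 201 CPM in wild type (log2 fold change -0.57 ± 0.06), a smaller fall than at the entry.

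Where electrons leave for ubiquinone, ND-49 (FBgn0039909, chromosome 4, 568296 to 571554, 7 exons) and ND-20 form the binding pocket. ND-49 was at 66.6 and 64.8 CPM in poxn > prosRNAi tumors, against 179 and 180 CPM in wild type (log2 fold change -1.44 ± 0.06, SE, adjusted p = 1.09e-05 in edgeR's quasi-likelihood test). This was the furthest of all 34 subunits from wild type, at 36.7% of its mean, and ND-49 is the 1 member on chromosome 4. ND-20 (FBgn0030718, X, 15985473 to 15986808), which holds the last cluster, was at 63.5 and 59.5 CPM in poxn > prosRNAi tumors, against 87.5 and 92.7 CPM in wild type (log2 fold change -0.55 ± 0.07). ND-23 (FBgn0017567, 3R, 15836048 to 15837117) carries the clusters that lead to it. ND-23 was at 40.3 and 42.9 CPM in poxn > prosRNAi tumors, against 81.0 and 86.4 CPM in wild type (49.7% of the wild-type mean). ND-30 (FBgn0266582, 3L, 3158485 to 3159578) holds no cluster and ties the matrix arm together. It was at 41.0 and 36.6 CPM in poxn > prosRNAi tumors, against 49.1 and 50.01 CPM in wild type (log2 fold change -0.35 ± 0.08, adjusted p = 0.00762), the smallest fall of the core. Subunits that touch each other in the complex, such as ND-49 and ND-20, stood at different distances from wild type.

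The accessory subunits covered the same range. In the matrix arm the log2 fold changes ran from -1.02 for ND-13A, a zinc-binding subunit in mammals, to -0.07 for ND-B8, which was not called. ND-B8 was at 2.00 and 1.99 CPM in poxn > prosRNAi tumors, against 1.92 and 2.30 CPM in wild type. ND-18, whose human counterpart is among the genes mutated in Leigh syndrome, had the smallest called fall of all, at 31.2 and 32.2 CPM in poxn > prosRNAi tumors, against 38.0 and 39.7 CPM in wild type (log2 fold change -0.29 ± 0.06, adjusted p = 0.00677). In the membrane arm the range was -1.05 for ND-MWFE to -0.30 for ND-42. ND-42, a subunit with a fold related to nucleoside kinases, was at 67.5 and 62.8 CPM in poxn > prosRNAi tumors, against 78.5 and 82.5 CPM in wild type. ND-B18 was at 13.1 and 12.0 CPM in poxn > prosRNAi tumors, against 15.61 and 15.52 CPM in wild type. ND-SGDH was at 62.0 and 64.5 CPM in poxn > prosRNAi tumors, against 76.1 and 80.8 CPM in wild type. The last 3 are thus membrane-arm genes near 81% of wild type, and their calls and that of ND-18 were lost when wild-type replicate 2 was left out, that of ND-B18 also without replicate 1.

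ND-ACP (FBgn0011361, 3L, 1329949 to 1331631, 5 exons) encodes the mitochondrial acyl carrier protein, which serves fatty acid synthesis in the matrix besides its place in the complex. It was at 48.2 and 48.7 CPM in poxn > prosRNAi tumors, against 67.6 and 69.5 CPM in wild type (log2 fold change -0.50 ± 0.06, SE, adjusted p = 0.000681 in edgeR's quasi-likelihood test). ND-MLRQ (FBgn0052230, 3L, 23339326 to 23345936, 4 exons) was at 52.3 and 49.2 CPM in poxn > prosRNAi tumors, against 117 and 129 CPM in wild type (log2 fold change -1.27 ± 0.08, adjusted p = 3.87e-05). Both genes had replicates much closer to each other than to the other condition.

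At the stricter threshold of 0.001, 25 ND- genes were lower in poxn > prosRNAi tumors, while 54.6% of all genes tested were called in either direction. DESeq2's Wald test gave 34 lower at that threshold, where 4662 of all 17035 genes with an adjusted p were lower. In either direction it called 56.1% of them. Of the 36 calls, 31 were kept at 0.05 in every alternative fit, those that left out 1 library included. The muscle, neuron, glia and fat body marker sums were lower in poxn > prosRNAi tumors as well, with 14 of 15 muscle and 9 of 9 neuron markers called, and their part in the fall of the ND- genes was not tested.

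Between the tumors, fewer ND- genes passed the test and the sizes were smaller. Of 38 ND- genes tested, 10 were higher and 0 lower in poxn > prosRNAi, SypRNAi than in poxn > prosRNAi tumors, while 10.9% of all 13703 genes tested were higher and 12.4% lower. The share of 26.3% for the ND- genes is above that background, but it rests on both poxn > prosRNAi libraries. Without replicate 1 of poxn > prosRNAi 0 ND- genes were called, and without replicate 2 also 0, with 16 and 10 at an unadjusted p under 0.05. Over all genes, 107 were then higher and 128 lower without replicate 1, and 1 higher and 5 lower without replicate 2. Without poxn > prosRNAi, SypRNAi replicate 2, which held the higher level of muscle and neuron markers, 3 ND- genes were higher, and without replicate 1 there were 9. At the threshold of 0.001, edgeR's quasi-likelihood test called 0 ND- genes and 0 genes of all, with 22 ND- genes higher at an unadjusted p under 0.05. DESeq2's Wald test, the tool of the study, called 12 ND- genes higher at 0.05 and 4 at 0.001 (ND-15, ND-24, ND-ACP and ND-PDSW). At 0.001 it called 950 of all 14336 genes with an adjusted p higher, and 13.8% of them in either direction. The count of ND- genes lower was 0 in each alternative, also at an unadjusted p under 0.05 and in DESeq2.

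The median log2 fold change of the 34 subunits was 0.24, against 0.02 over all genes tested, and it lay between 0.21 and 0.27 when any 1 library was left out. In 26 of the 34 genes both poxn > prosRNAi, SypRNAi libraries were above both poxn > prosRNAi libraries, which 33.7% of all genes tested showed, and in 1 gene, ND-23, both were below. The other 7 overlapped. The called genes were unevenly spread over the complex: 1 of 7 core subunits, 0 of 8 accessory subunits of the matrix arm, 7 of 18 of the membrane arm, ND-MLRQ and 1 paralog. Whether the arms differ was not tested.

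The calls counted with the membrane arm were led by ND-15 and ND-ACP, of which ND-ACP is also bound by ND-B14 of the matrix arm. ND-15 (FBgn0031228, 2L, 114726 to 156030) is a subunit on the side of the intermembrane space. It was at 33.4 and 33.6 CPM in poxn > prosRNAi, SypRNAi tumors, against 22.5 and 22.9 CPM in poxn > prosRNAi tumors (log2 fold change 0.56 ± 0.06, SE, adjusted p = 0.00952 in edgeR's quasi-likelihood test), a fold of 1.48. Of its exon bases, 15.9% overlap CG3436 or CG3709, and reads there were given to each gene. ND-ACP, free of such overlap, was at 69.3 and 73.0 CPM in poxn > prosRNAi, SypRNAi tumors, against 48.2 and 48.7 CPM in poxn > prosRNAi tumors (log2 fold change 0.56 ± 0.06, adjusted p = 0.0104), a fold of 1.47. In both genes the gap between conditions was many times the gap between replicates.

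ND-PDSW was at 53.3 and 56.7 CPM in poxn > prosRNAi, SypRNAi tumors, against 41.7 and 39.2 CPM in poxn > prosRNAi tumors (log2 fold change 0.45 ± 0.07). ND-B18 was at 16.8 and 17.6 CPM, against 13.1 and 12.0 CPM (log2 fold change 0.45 ± 0.09). Both are membrane-arm subunits that face the intermembrane space, like ND-15. The smallest calls were ND-B14.7, ND-19 and ND-B16.6. ND-B14.7 was at 44.8 and 48.5 CPM in poxn > prosRNAi, SypRNAi tumors, against 38.2 and 36.1 CPM in poxn > prosRNAi tumors (log2 fold change 0.33 ± 0.07, adjusted p = 0.0349). ND-19 was at 28.5 and 31.2 CPM, against 24.7 and 23.3 CPM (log2 fold change 0.32 ± 0.08, adjusted p = 0.0454). ND-B16.6, whose mammalian counterpart is also known as GRIM-19, was at 40.9 and 40.6 CPM, against 34.6 and 33.5 CPM (log2 fold change 0.26 ± 0.06, adjusted p = 0.0382). In these 3 the libraries did not overlap, yet each call was lost when any 1 of at least 3 libraries was left out.

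Among the core subunits, ND-24 was the 1 called between the tumors. It was at 40.4 and 46.2 CPM in poxn > prosRNAi, SypRNAi tumors, against 31.3 and 31.6 CPM in poxn > prosRNAi tumors (log2 fold change 0.46 ± 0.09, SE, adjusted p = 0.0250 in edgeR's quasi-likelihood test). ND-49 was at 74.5 and 91.7 CPM, against 66.6 and 64.8 CPM (log2 fold change 0.34 ± 0.11, adjusted p = 0.0919). It did not pass, and its replicates with SypRNAi lay further apart than the groups' nearest libraries. DESeq2 gave it an adjusted p of 0.0350. ND-51 was at 101 and 113 CPM in poxn > prosRNAi, SypRNAi tumors, against 93.0 and 98.6 CPM in poxn > prosRNAi tumors (log2 fold change 0.16 ± 0.08). ND-20 was at 69.5 and 69.9 CPM, against 63.5 and 59.5 CPM (log2 fold change 0.18 ± 0.07). ND-30 was at 42.5 and 46.2 CPM, against 41.0 and 36.6 CPM (log2 fold change 0.19 ± 0.09). None of these 3 was called, although their libraries did not overlap. ND-75 was at 135 and 151 CPM in poxn > prosRNAi, SypRNAi tumors, against 137 and 132 CPM in poxn > prosRNAi tumors, and the conditions overlapped. ND-23 was at 37.1 and 39.7 CPM, against 40.3 and 42.9 CPM (log2 fold change -0.11 ± 0.07, adjusted p = 0.300), so that it alone among the 34 had both libraries lower with SypRNAi. With library totals alone as the scaling its sign turned, to a log2 fold change of 0.02.

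ND-MLRQ was at 63.0 and 72.2 CPM in poxn > prosRNAi, SypRNAi tumors, against 52.3 and 49.2 CPM in poxn > prosRNAi tumors (log2 fold change 0.42 ± 0.09, adjusted p = 0.0346 in edgeR's quasi-likelihood test). In the matrix arm, the accessory subunits ranged from 0.00 for ND-39 to 0.26 for ND-13B on the log2 scale, and the lowest adjusted p was 0.0528, for ND-B14. With library totals alone as the scaling, 26 ND- genes were higher between the tumors. That scaling also moved the median of all genes tested to 0.15 and the share of higher genes among all calls to 71.8%, against 46.7% with TMM. The median of the 34 subunits was then 0.38, to be read against the 0.15 of all genes. The higher ND- levels with SypRNAi went along with higher muscle markers, of which 14 of 15 were called higher with a median log2 fold change of 3.13, and with 3 of 9 neuron markers. Their part in the result was not tested. Within poxn > prosRNAi, SypRNAi, 28 of the 34 subunit genes were higher in replicate 2 than in replicate 1, as were the sums of the muscle and neuron markers.

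**Figure D2:**
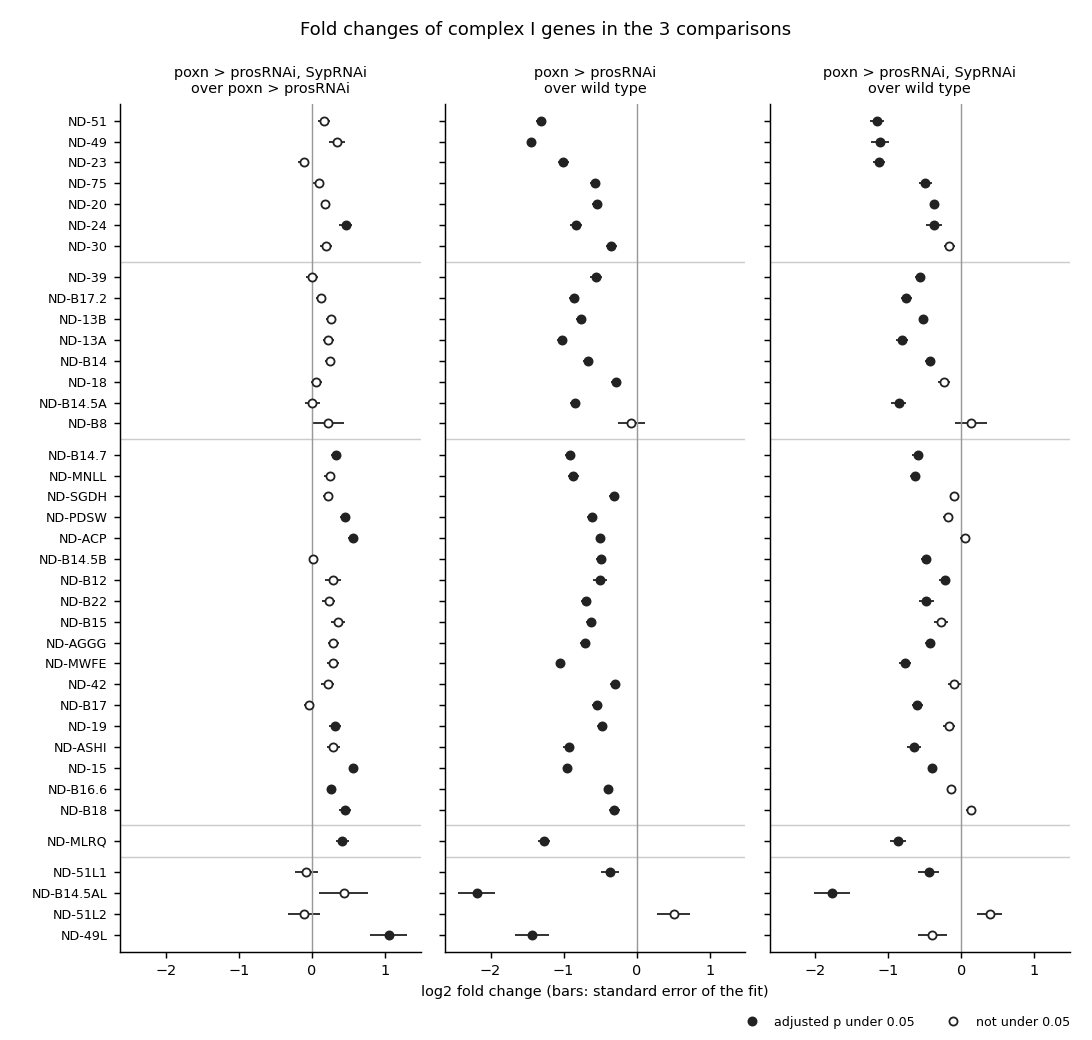
Log2 fold change of the 38 tested ND- genes in the 3 comparisons, with the standard error of the edgeR fit as bars, ordered as in the plot of levels and with paralogs at the bottom. Filled circles have an adjusted p under 0.05 and open circles do not. In the middle panel 36 circles are filled and left of 0, in the left panel 10 are filled and right of 0, and in the right panel 25 are filled and left of 0.

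Most subunits were also lower in poxn > prosRNAi, SypRNAi tumors than in wild type, but 8 of the membrane arm were not called. Of 38 ND- genes tested, 25 were lower and 0 higher, while 36.7% of all 14289 genes tested were lower and 39.8% higher. At an unadjusted p under 0.05, 0 ND- genes were higher and 27 lower, and DESeq2 called 0 higher and 28 lower. The median log2 fold change of the 34 subunits was -0.46, against 0.04 over all genes. Of the core 6 of 7 fell, of the matrix-arm accessory subunits 6 of 8, and of the membrane-arm accessory subunits 10 of 18. In 30 of the 34 genes both tumor libraries were below both of wild type, which 44.1% of all genes tested showed. At the threshold of 0.001, 5 ND- genes were lower in edgeR's quasi-likelihood test, which called 37% of all genes tested in either direction. DESeq2's Wald test gave 22 lower at that threshold, where 4232 of all 16073 genes with an adjusted p were lower. In either direction it called 55% of them. This comparison shares its libraries with the other 2, so that its values are given beside theirs and not as separate evidence.

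Among the 34 subunits, the 3 largest falls were those of core genes. ND-51 was at 101 and 113 CPM in poxn > prosRNAi, SypRNAi tumors, against 231 and 244 CPM in wild type (log2 fold change -1.15 ± 0.09, SE, adjusted p = 0.000416 in edgeR's quasi-likelihood test). ND-23 was at 37.1 and 39.7 CPM, against 81.0 and 86.4 CPM (log2 fold change -1.13 ± 0.08, adjusted p = 0.000279). ND-49 was at 74.5 and 91.7 CPM, against 179 and 180 CPM (log2 fold change -1.11 ± 0.13, adjusted p = 0.00132). These 3 core genes stood at 45.0%, 45.9% and 46.4% of the wild-type mean, in this order. ND-MLRQ was at 63.0 and 72.2 CPM, against 117 and 129 CPM in wild type (log2 fold change -0.87 ± 0.11). The remaining core genes stood nearer to wild type, with log2 fold changes of -0.49 for ND-75, -0.38 for ND-24, -0.37 for ND-20 and -0.17 for ND-30, the last not called.

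At the other end were genes counted with the membrane arm. ND-ACP was at 69.3 and 73.0 CPM in poxn > prosRNAi, SypRNAi tumors, against 67.6 and 69.5 CPM in wild type, and the libraries overlapped (log2 fold change 0.05 ± 0.07, adjusted p = 0.535). ND-B18 was at 16.8 and 17.6 CPM, against 15.61 and 15.52 CPM (log2 fold change 0.14 ± 0.07, adjusted p = 0.136). With library totals alone as the scaling both signs turned. A p that misses the threshold does not show that these levels were equal. The smallest called falls were those of ND-B12 (log2 fold change -0.23 ± 0.08), ND-20, ND-24, ND-15 (-0.40 ± 0.06) and ND-B14 (-0.43 ± 0.07). ND-B12 was at 39.1 and 42.4 CPM in poxn > prosRNAi, SypRNAi tumors, against 46.8 and 48.5 CPM in wild type, and its call was lost in 5 of the alternative fits. ND-15 was at 33.4 and 33.6 CPM, against 43.4 and 44.6 CPM in wild type. ND-B14, a subunit that binds ND-ACP, was at 23.4 and 24.1 CPM, against 30.4 and 33.1 CPM in wild type. Of the markers in this comparison, 9 of 9 for neurons were lower. For glia 5 of 6 were lower and 1 higher, at a log2 fold change of 0.54. For fat body 5 of 6 were lower and 1 higher, at a log2 fold change of 5.73. For muscle 8 of 15 were higher and 2 lower, with a median log2 fold change of 0.78. The part of these markers in the result was not tested.

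The 6 paralogs were far below the subunits they resemble. ND-51L1 and ND-51L2 have 1 exon each, and both lie on chromosome 2R, apart from ND-51. ND-51L1 was at 4.56 and 5.28 CPM in poxn > prosRNAi, SypRNAi tumors, 4.95 and 5.44 CPM in poxn > prosRNAi tumors, and 6.95 and 6.45 CPM in wild type. It was lower in poxn > prosRNAi tumors than in wild type (log2 fold change -0.36 ± 0.12, SE, adjusted p = 0.0376 in edgeR's quasi-likelihood test), but 4 of the alternative fits lost this call. Per kb it reached 3.41% of ND-51 in poxn > prosRNAi, SypRNAi tumors, 4.03% in poxn > prosRNAi tumors and 2.09% in wild type. ND-51L2 was the 1 ND- gene above wild type in both tumors with no overlap of the libraries, an arrangement that 46% of all genes tested showed for poxn > prosRNAi, SypRNAi and 46.4% for poxn > prosRNAi tumors. It was at 2.62 and 2.59 CPM in poxn > prosRNAi, SypRNAi tumors, 2.35 and 3.28 CPM in poxn > prosRNAi tumors, and 1.81 and 2.14 CPM in wild type. Neither difference from wild type passed edgeR's quasi-likelihood test. The log2 fold change was 0.39 ± 0.17 (adjusted p = 0.0993) in poxn > prosRNAi, SypRNAi tumors and 0.51 ± 0.23 (adjusted p = 0.0827) in poxn > prosRNAi tumors. Without poxn > prosRNAi replicate 1 the comparison of those tumors with wild type gave ND-51L2 a log2 fold change of 0.75 and an adjusted p of 0.0223.

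ND-49L (FBgn0039331, 3R, 25358285 to 25360034, 2 exons) was at 0.941 and 0.917 CPM in poxn > prosRNAi, SypRNAi tumors, 0.452 and 0.426 CPM in poxn > prosRNAi tumors, and 1.26 and 1.19 CPM in wild type. These are 123 and 95 counts, 42 and 33 counts, and 146 and 157 counts. It was lower in poxn > prosRNAi tumors than in wild type (log2 fold change -1.44 ± 0.23, adjusted p = 0.00200 in edgeR's quasi-likelihood test). It had the largest fold between the tumors of any ND- gene (log2 fold change 1.05 ± 0.25, adjusted p = 0.0438). That call was lost with DESeq2, whose adjusted p was 0.0645, with no filter beyond 1 count, with the replicate block and with any 1 library left out. ND-49L was at 1.05% of ND-49 per kb in poxn > prosRNAi, SypRNAi tumors, against 0.626% in poxn > prosRNAi tumors and 0.642% in wild type.

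ND-B14.5AL (FBgn0037172, 3L, 22606369 to 22607126, 1 exon) had the largest fall of any ND- gene. It was at 0.405 and 0.522 CPM in poxn > prosRNAi, SypRNAi tumors, 0.377 and 0.297 CPM in poxn > prosRNAi tumors, and 1.51 and 1.73 CPM in wild type. Its log2 fold change was -2.19 ± 0.25 in poxn > prosRNAi tumors against wild type (adjusted p = 0.000459 in edgeR's quasi-likelihood test) and -1.77 ± 0.25 in poxn > prosRNAi, SypRNAi tumors against wild type (adjusted p = 0.00277). It made up 2.48%, 1.81% and 4.79% of ND-B14.5A per kb in poxn > prosRNAi, SypRNAi tumors, poxn > prosRNAi tumors and wild type. ND-B14.5A itself, a matrix-arm subunit, was at 18.3 and 21.5 CPM, 20.02 and 19.66 CPM, and 35.5 and 36.3 CPM in the same order.

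ND-20L and ND-24L were close to absent at this depth and were not tested. ND-20L had 2 and 0 counts in poxn > prosRNAi, SypRNAi tumors, 6 and 2 counts in poxn > prosRNAi tumors, and 0 and 2 counts in wild type. ND-24L had 2 and 1 counts, 0 and 4 counts, and 7 and 6 counts in the same order. With a floor of 3 counts per library, ND-20L was above it in 1 library and ND-24L in 3. The flies pooled included males. The 11 testis markers summed to 5.06 and 4.95 CPM, 5.04 and 6.26 CPM, and 5.41 and 5.37 CPM in the same order. Among them, the sperm genes Mst87F, dj, ProtA and ProtB were at 0.00 to 0.431 CPM in each library. The similar sums hide members that moved in opposite directions. In each tumor condition both libraries were above both of wild type for can and below them for sa. Against wild type, 1 of 5 tested was higher and 4 lower in poxn > prosRNAi tumors. In poxn > prosRNAi, SypRNAi tumors 4 of 9 tested were higher and 3 lower. Between the tumors 2 of 8 tested were higher with SypRNAi and 1 lower. The alignments counted were named as unique in the file header, and reads that fit a paralog and its subunit equally well would then be missing from both.

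**Figure D3:**
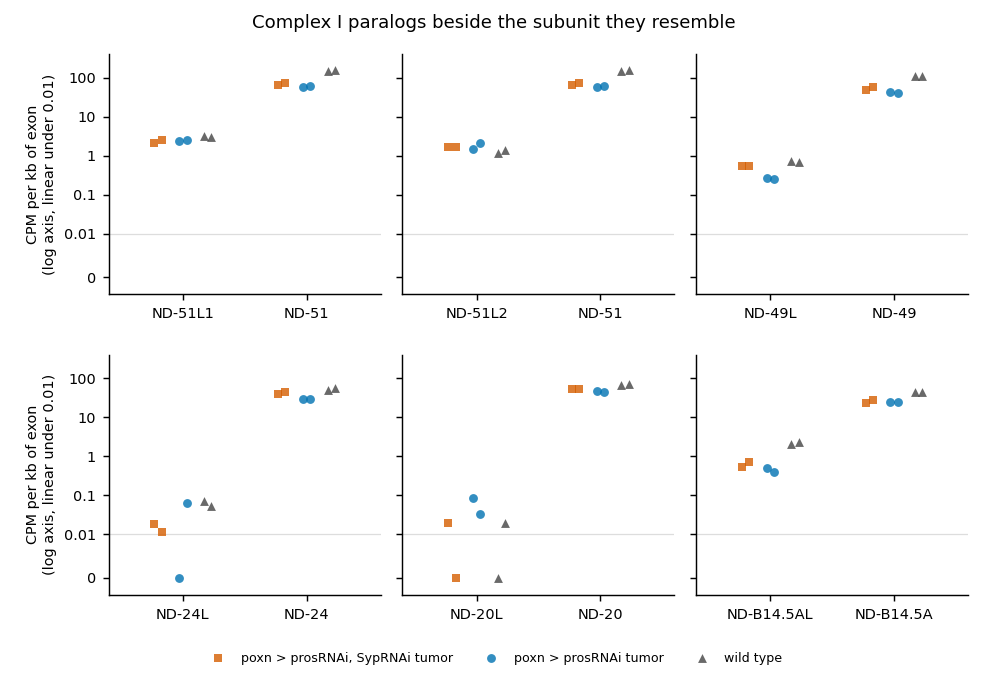
Each of the 6 paralogs beside the subunit it resembles, in CPM per kb of exon in each library, on an axis that is logarithmic above 0.01 and linear below it. Orange squares are poxn > prosRNAi, SypRNAi tumors, blue circles poxn > prosRNAi tumors and grey triangles wild type. ND-51L1 is 1.96% to 4.10% of ND-51 over the libraries, and ND-20L and ND-24L lie near 0.

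The other genes of the respiratory chain were counted in the same fits. Of all genes tested there, 41.9% were called higher and 40.7% lower in poxn > prosRNAi tumors against wild type. The shares were 39.8% and 36.7% in poxn > prosRNAi, SypRNAi tumors against wild type, and 10.9% and 12.4% between the tumors. The 7 ND genes of the mitochondrial genome, which encode the core of the membrane arm, summed to 1411 and 1293 CPM in poxn > prosRNAi, SypRNAi tumors, 1244 and 1082 CPM in poxn > prosRNAi tumors, and 3542 and 4962 CPM in wild type. In poxn > prosRNAi tumors all 7 were lower than in wild type, with a median log2 fold change of -1.79. All 7 were lower in poxn > prosRNAi, SypRNAi tumors as well, with a median of -1.56. Between the tumors 2 of 7 were higher. The mitochondrially encoded part of the complex thus stood further below wild type than the nuclear subunits, whose medians were -0.64 and -0.46.

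A chosen list of 37 nuclear genes of complexes II to V included paralogs. Of these, 34 were lower and 1 higher in poxn > prosRNAi tumors against wild type, with a median log2 fold change of -0.85. Against wild type, 23 were lower and 2 higher in poxn > prosRNAi, SypRNAi tumors, with a median of -0.36. Between the tumors 21 were higher and 1 lower, with a median of 0.49, against 10 of 38 and 0.24 for complex I. Of a chosen list of 5 assembly factors, the 4 found in the table went the other way. Other assembly factors were not examined, and 1 gene made up 75.5% of the summed level of these 4. All 4 were higher in both tumors than in wild type, with median log2 fold changes of 0.46 in poxn > prosRNAi, SypRNAi tumors and 0.49 in poxn > prosRNAi tumors, and 0 of 4 were called between the tumors, with a lowest adjusted p of 0.541. Of the 73 mitochondrial ribosomal protein genes, 45 were higher and 8 lower in poxn > prosRNAi tumors than in wild type, 49 were higher and 5 lower in poxn > prosRNAi, SypRNAi tumors than in wild type, and 8 were higher and 0 lower between the tumors. Most listed genes of the other complexes and the mitochondrial ND genes were thus lower in the tumors like the ND- genes. Most of the mitochondrial ribosomal protein genes and these 4 assembly factors were higher. NP15.6, the ESSS subunit left out by its symbol, was at 48.5 and 57.1 CPM in poxn > prosRNAi, SypRNAi tumors, 42.5 and 38.9 CPM in poxn > prosRNAi tumors, and 38.9 and 38.2 CPM in wild type. It was not called lower in either tumor. It was higher in poxn > prosRNAi, SypRNAi tumors than in wild type (log2 fold change 0.45 ± 0.11, adjusted p = 0.0158 in edgeR's quasi-likelihood test).

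**Figure D4:**
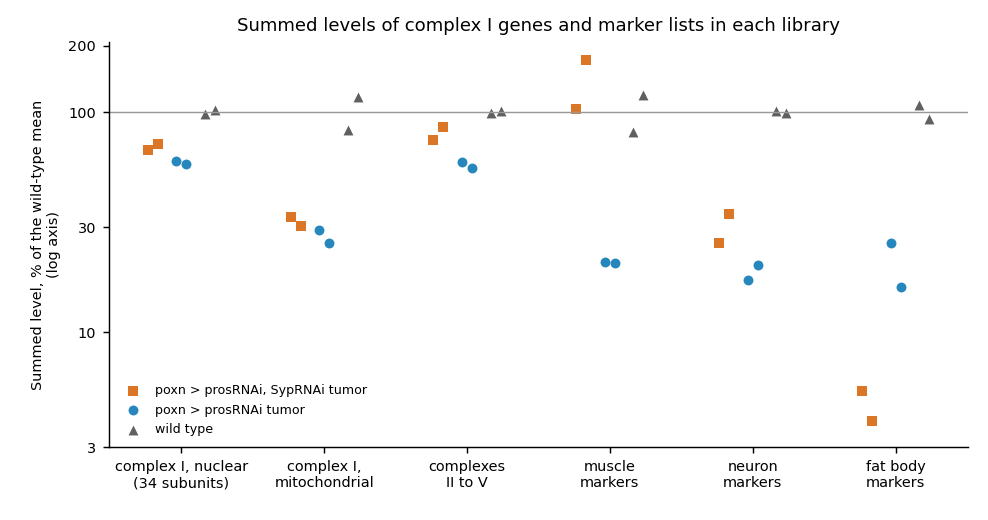
Summed level of the 34 nuclear subunits, the 7 mitochondrial ND genes, 37 listed genes of complexes II to V and 3 marker lists in each library, as a percentage of the wild-type mean on a log axis. The 34 nuclear subunits were summed as CPM per kb of exon and the other lists as CPM. Orange squares are poxn > prosRNAi, SypRNAi tumors, blue circles poxn > prosRNAi tumors and grey triangles wild type. The nuclear subunits are at 57.9% to 71.8% in the tumors, and the muscle markers are low in poxn > prosRNAi tumors alone.

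The genes of the set are spread over the genome, with 9 on X, 9 on 2L, 8 on 2R, 9 on 3L, 4 on 3R and 1 on chromosome 4. Of the 40, 17 share exon bases with another gene, and without strand such reads cannot be told apart. ND-MNLL overlaps CG45089 over 100% of its exon bases on the same strand, so that its values (41.5 and 42.4 CPM in poxn > prosRNAi, SypRNAi tumors, 37.2 and 33.9 CPM in poxn > prosRNAi tumors, 63.4 and 66.9 CPM in wild type) are those of both genes. ND-MWFE overlaps other genes over 35.0% and ND-B22 over 26.1%. Among the members with no overlap, 6 of 21 were higher between the tumors, 20 of 21 lower in poxn > prosRNAi tumors against wild type and 15 of 21 lower in poxn > prosRNAi, SypRNAi tumors against wild type.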

How the data were processed

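RNA-seq libraries from adult VNCs were analysed, 2 for each of 3 conditions. The libraries were stranded, made from total RNA after rRNA depletion, although the labels also name polyA RNA. The deposited table holds raw counts per gene, which the authors made with Subread and featureCounts 1.5.0 on exons of FlyBase annotation 6.19, without a strand or a pair option. A read over several genes was given to each. The table's exon lengths were used for CPM per kb. The positions of the 40 members were checked and are those of Release 6 of the genome, although the submitters' processing notes name dm3. Genes of rRNA took 14.6% to 23.4% of a library.

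The counts were fitted in R 4.3.3 with edgeR 4.0.16 (TMM, filterByExpr with a minimum count of 10, prior count 2, quasi-likelihood test, Benjamini-Hochberg over all genes of the fit) on the 4 libraries of each comparison, and genes were called at an adjusted p under 0.05. The study's threshold of 0.001 and DESeq2 1.42.0 were alternatives, and their combination was added after the data were seen. Others were DESeq2's size factors, library totals, rRNA and mitochondrial genes removed, other filters, all 6 libraries in one fit, a replicate block, members without exon overlaps and leaving out each library. limma 3.58.1 was loaded by edgeR, and plots were made with matplotlib 3.10.9. The fits were tested on simulated data. Lists were counted, with no set test. Members and lists were chosen with earlier results of these data known. The genes named with values are the core subunits, ND-ACP, ND-MLRQ, the paralogs, and in each comparison the 5 called genes at each end of the log2 fold changes whose libraries did not overlap. Other genes were given by range and count, with the genes at the ends of a range named (ND-13A, ND-13B, ND-39 and ND-MWFE). ND-B8, ND-B14.5A, ND-MNLL and NP15.6 were named after their values were seen, as were the marker genes mira, wor, can and sa. Sequences were not used here.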

Additional observations from a re-analysis of the deposited data

How the results depend on the processing

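Between the tumors, library totals alone gave 26 ND- genes higher and a subunit median of 0.38, the threshold of 0.001 gave 0 in edgeR and 4 in DESeq2, a pairing chosen after seeing the data, and members without exon overlaps gave 6 and 0.21. Leaving out a library gave 0 to 9 genes higher and a median of 0.21 to 0.27. In poxn > prosRNAi tumors against wild type, members without exon overlaps gave 20 lower, and leaving out a library gave 0 to 1 higher (ND-51L2, without poxn > prosRNAi replicate 1) and 31 to 36 lower. The median was -0.69 with DESeq2's size factors, -0.93 with library totals, -0.72 with 10 counts in every library, -0.70 in DESeq2 and -0.69 to -0.60 with a library left out. For poxn > prosRNAi, SypRNAi tumors against wild type, 5 were lower at 0.001 in edgeR (22 in DESeq2) and 15 among members without exon overlaps, and 21 to 31 with a library left out. The median was -0.50 with DESeq2's size factors, -0.60 with library totals, -0.50 in DESeq2, -0.49 without members with exon overlaps and -0.49 to -0.39 with a library left out. The summed level was 65.5% and 56.3% of wild type with DESeq2's size factors and 62.8% and 48.5% with library totals, in poxn > prosRNAi, SypRNAi and poxn > prosRNAi tumors. Library totals moved the median of all genes to 0.15, -0.27 and -0.09 in the 3 comparisons. The causes were not tested.

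Of 864 alternative values of single genes, 767 kept direction and call, 54 lost the call, 33 gained it and 10 turned sign. Between the tumors these were ND-23 (0.019), ND-51L1 (0.054) and ND-51L2 (0.027) with library totals, and with a library left out ND-51L1 (-0.19 to 0.024), ND-51L2 (-0.33 to 0.16) and ND-18 (-0.022 to 0.13). Against wild type in poxn > prosRNAi, SypRNAi tumors they were ND-ACP (-0.093) and ND-B18 (-0.0038) with library totals, and with a library left out ND-42 (-0.21 to 0.0073) and ND-ACP (-0.014 to 0.11). None of the 10 was called in either fit.

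The replicate numbers mark no stated pairing, and the deviations of same-numbered libraries correlated at 0.317, -0.199 and -0.034 over 12350 genes. With the replicate block 9 ND- genes were higher between the tumors, 35 lower in poxn > prosRNAi tumors and 23 lower in poxn > prosRNAi, SypRNAi tumors against wild type. Counts were few for ND-20L and ND-24L, which were not tested, and low for ND-B14.5AL and ND-49L, whose standard errors between the tumors were 0.34 and 0.25 on the log2 scale.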

Other observations

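The membrane-arm calls between the tumors held a structural group that the division into arms did not use, and that was noticed after the values were seen. ND-15, ND-19, ND-B18 and ND-PDSW are the subunits whose mammalian counterparts carry a coiled-coil-helix-coiled-coil-helix (CHCH) domain, held by disulfide bonds in the intermembrane space. All 4 were higher in poxn > prosRNAi, SypRNAi than in poxn > prosRNAi tumors in edgeR's quasi-likelihood test. Of the other membrane-arm subunits 3 of 14 were higher, and of all genes tested 10.9%. The log2 fold changes of the 4 were 0.32 to 0.56 with a median of 0.45, against a median of 0.28 for the others. In poxn > prosRNAi tumors against wild type the medians of both groups were close, -0.55 for the CHCH subunits and -0.59 for the others. In poxn > prosRNAi, SypRNAi tumors against wild type 1 of 4 CHCH subunits and 9 of 14 others were lower, beside 36.7% of all genes tested. The group was picked from these values, so it was given no test, and its 4 calls were among those lost without either poxn > prosRNAi library.

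ND-B8 stood at 4.34 to 5.04 CPM per kb in the means of the conditions, while its neighbours in the matrix arm stood at 24.6 to 117 CPM per kb. It was also the 1 subunit gene whose libraries overlapped between poxn > prosRNAi tumors and wild type. Of its exon bases 15.4% overlap Gs1l on the opposite strand, and the source of its counts was not tested.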
